A study of Salmo salar with 37 samples.

Results

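The probes described here target cell cycle and DNA replication genes of the Atlantic salmon testis. They were picked by words in the gene descriptions of the study's list of differentially expressed transcripts (cyclin, cell division, mitotic, kinetochore, spindle, kinesin, replication, DNA polymerase, checkpoint, condensin and related words), and 113 probes with 94 different descriptions matched, out of 1974 described probes and 43689 probes on the array. RNA from the testes of 37 males was measured on one-color arrays, where the Cy3 brightness of a spot measures the transcript its probe targets. By the titles of the samples, 16 males had received the normal ration (NR, fed to appetite every day) and 21 the restricted ration (RR, fed in the same way but on fewer days of the week). All were post-smolt males in seawater under ambient light, with 1 male per array and no pooling, and immature and maturing males occur together in both ration groups. The labels give neither the status nor the sampling time of a male. Names of the deposited files carry tokens that may stand for both, but groups were taken from the labels alone, so comparisons by status were not analysed here. The fish were held in 2 sea cages and fed as 2 groups, so cage and ration cannot be told apart. Levels are given as quantile-normalized log2 intensity, on which a difference of 1 is a doubling.

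A cell that divides first licenses its replication origins with the MCM helicase, copies its DNA with the replicative polymerases, compacts its chromosomes with condensin, and pulls them apart on a spindle whose grip on the kinetochores is watched by a checkpoint. Cyclins and the kinases they activate drive each of these steps. In the testis these genes serve the mitotic multiplication of spermatogonia and the meiotic divisions of spermatocytes, and in fish the Sertoli cells that surround a germ cell cyst multiply as well. By the paper's histology, the males chosen for the arrays had no germ cells beyond type A spermatogonia, a stage before meiosis. In RNA of whole tissue, fewer cells of a type and less RNA per cell cannot be told apart.

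The values that chose the probes came from these same males. Of the 113, 80 stand in the study's list of maturing against immature males and 33 only in a list that compared rations, 32 of them within maturing males and 1 (SMC1B) over all males. Of the 80, 30 also stand in the study's list that compared rations within maturing males, so the 80 are not free of a choice by ration. A test of RR against NR males is given for the 80 only. For the other 33, which entered by a ration list alone, values are given. How the probes varied from male to male is a description for all 113. Not every match is a gene of the cycle. There were 13 probes set apart as matches by a word alone. Examples are calcyclin-binding protein, a probe annotated with the bacterial division protein ZipA, Cdc42 (a small GTPase of cell polarity) and the lipid flippase subunit 50A. The grouping is not strict. The 13 also hold 2 probes for cell division cycle-associated protein 7, which the paper names among cell division proteins. Kinesin-1 heavy chain and kinesin light chain 2 were counted with the spindle probes.

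All 113 probes passed the filter for tests (well above background on at least 16 arrays), 104 of them on all 37 arrays, and none on fewer than 31. The arrays stood on 11 slides scanned on 2 days, with 11 NR and 6 RR males on day 1 and 5 NR and 15 RR males on day 2. The median intensity of an array ran from 229 to 470 in NR and from 237 to 860 in RR males, with RR 16 at the top, and between 34084 and 43287 probes per array were well above background. Defining markers of germ cells and Sertoli cells were not looked for among the described probes, so the tissue label was not checked with them.

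The cell cycle probes varied together from male to male. The mean deviation of the 113 probes from their own means over all males ran in NR males from -0.51 (NR 5) through a median of 0.09 to 0.51 (NR 16). In RR males it ran from -0.83 (RR 3) through a median of -0.29 to 1.11 (RR 19). The RR values reached past the NR range on both sides, with a gap inside it. No RR male lay between 0.17 (RR 1) and 0.82 (RR 17), where NR 1, NR 13 and NR 16 lay. Above every NR male stood 5 RR males (RR 17 to RR 21, between 0.82 and 1.11). Below every one stood 4 RR males (RR 3, RR 4, RR 11 and RR 16, between -0.83 and -0.56). These 5 and 4 males were picked out after their values had been seen, and no comparison was made between them and the rest. The paper counts 5 maturing males in its RR group. The labels do not say which males those were, and whether they are RR 17 to RR 21 was not tested.

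**Figure D1:**
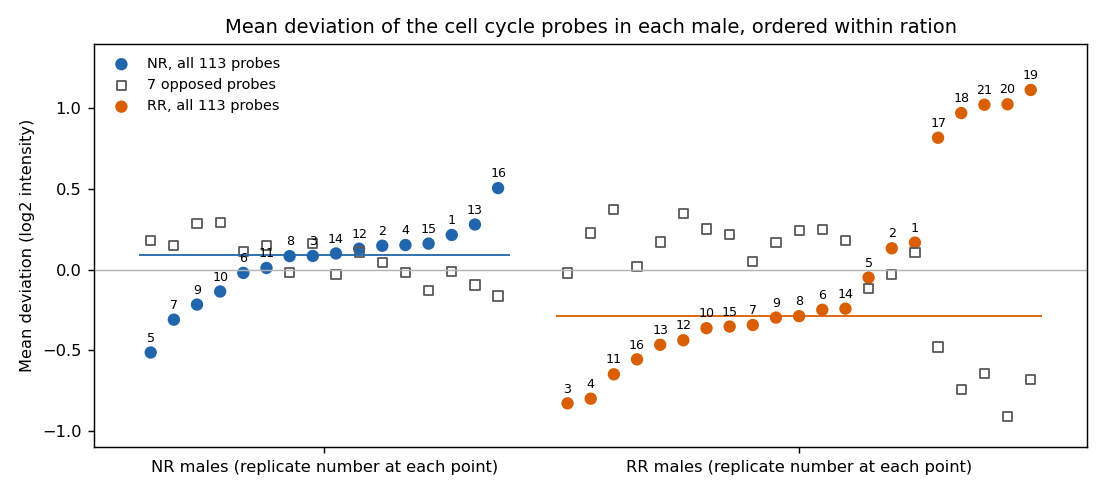
Mean deviation of the 113 cell cycle probes from their means over all males (log2 intensity, filled circles) for each of 16 NR and 21 RR males, ordered within ration, with the replicate number at each point and a line at the ration's median; open squares give the mean of the 7 probes that ran against the others. RR 17 to RR 21 sit between 0.82 and 1.11, above the highest NR male at 0.51.

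In 76 of the 113 probes (67.3%) the 5 highest males were exactly RR 17 to RR 21, and in 100 probes these males were all among the 10 highest. Since these males were picked by the mean of the same probes, the counts describe the pattern and are no support for it. The pattern was not particular to the cell cycle probes. Of the 1182 probes listed under maturation outside the 113, 428 also had exactly these 5 males highest. Because the 113 probes picked the males, the 2 counts cannot be set against each other. RR 19 and RR 20 each had the highest level in 34 probes, RR 18 in 18 and RR 21 in 13. At the lower end RR 4 was lowest in 32 probes, RR 3 in 30 and RR 16 in 19. RR 16, whose array had the highest median intensity, was low in the mean but not in every probe. It was highest in 2 probes. It also lay above the highest NR male for BUB1 beta (7.62 against 7.23) and the ration-listed mcm7 probe (8.72 against 8.34).

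**Figure D2:**
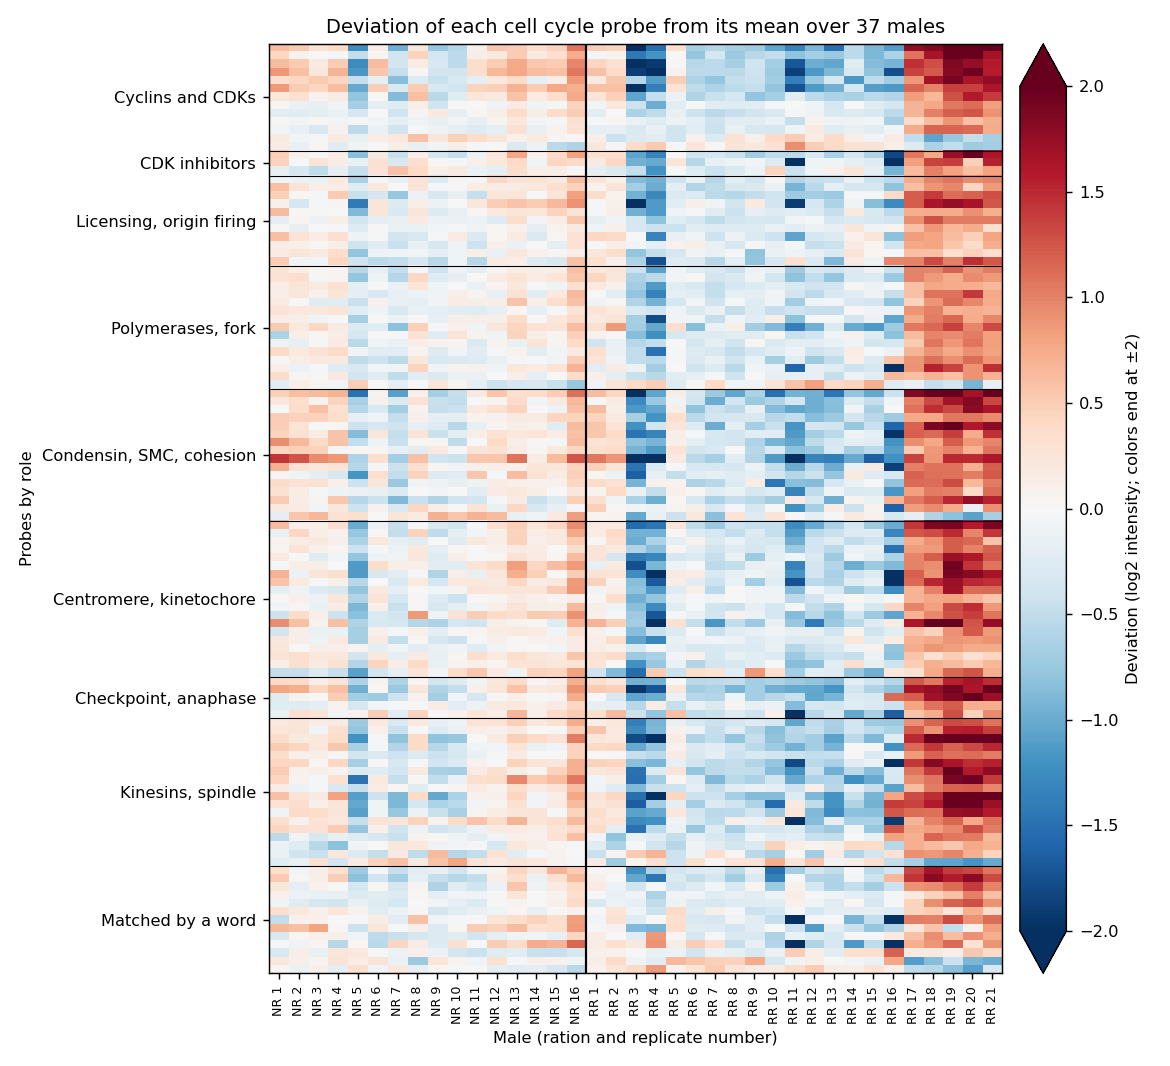
Deviation of each of the 113 probes (rows, grouped by role and ordered within a role by their likeness to the other probes) from its mean over 37 males (columns, NR 1 to NR 16 and RR 1 to RR 21), in log2 intensity with colors ending at ±2. RR 17 to RR 21 are red in nearly every row, and the rows at the foot of some roles run the other way.

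The probes ran together within the NR males. Over the 16 NR males, 56 probes correlated with the mean of the others at a Pearson r over 0.8, and 11 had an r below 0. The mean of 25 replication probes (licensing and fork) followed that of 56 probes for mitosis (condensin, kinetochore, checkpoint and spindle) with r = 0.96 and Spearman's rho = 0.97, and r was 0.91 without the 2 males farthest from the median. Both means left out the probes of these roles with an r below 0 over all males (DNA polymerase zeta, SMC1B and KIF9). Leaving them out can by itself raise the r between the means. The correlations describe probes that share RNA, array and the list they were taken from, so no p is given. NR 16 was the highest and NR 5 the lowest NR male in both means.

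Between rations no cell cycle probe that could be tested passed. Of the 80 probes listed under maturation none was called in RR against NR males (limma; calls needed more than a 1.5-fold difference and, after Benjamini-Hochberg adjustment, a p below 0.01), where 104 of all 40684 probes were called (0.256%), 36 higher (0.0885%) and 68 lower (0.167%) in RR males. At an unadjusted p below 0.05 there were 4 of the 80, all lower in RR males, against 16.4% of all probes. At an adjusted p below 0.05 without a fold threshold there was 1, against 1.62%. Of the 1182 other maturation-listed probes 2 were called, 130 had an unadjusted p below 0.05, and 13 an adjusted p below 0.05. Probes of that list were chosen to differ between immature and maturing males, who occur together in both rations. The study also listed 30 of the 80 as differing between rations within maturing males, a comparison that was not made here. The median difference over all 40684 probes was -0.02, with 21955 lower and 18729 higher in RR males. Over the 113 probes it was -0.06, with 72 lower and 41 higher. Both the sign and this count turned with the scaling: with each array scaled to its 75th percentile the median was 0.03 with 62 probes higher, where the median of all probes moved to 0.07. By scan day the median was -0.16 on day 1, with 27 probes higher in RR males, and 0.00 on day 2, with 58 higher. With scan day as a block it was -0.07, and 0 of the 80 and 9 of all probes (0.0221%, all higher in RR males) were called. The p-values rest on 1 cage per ration and measure the spread between these males.

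**Figure D3:**
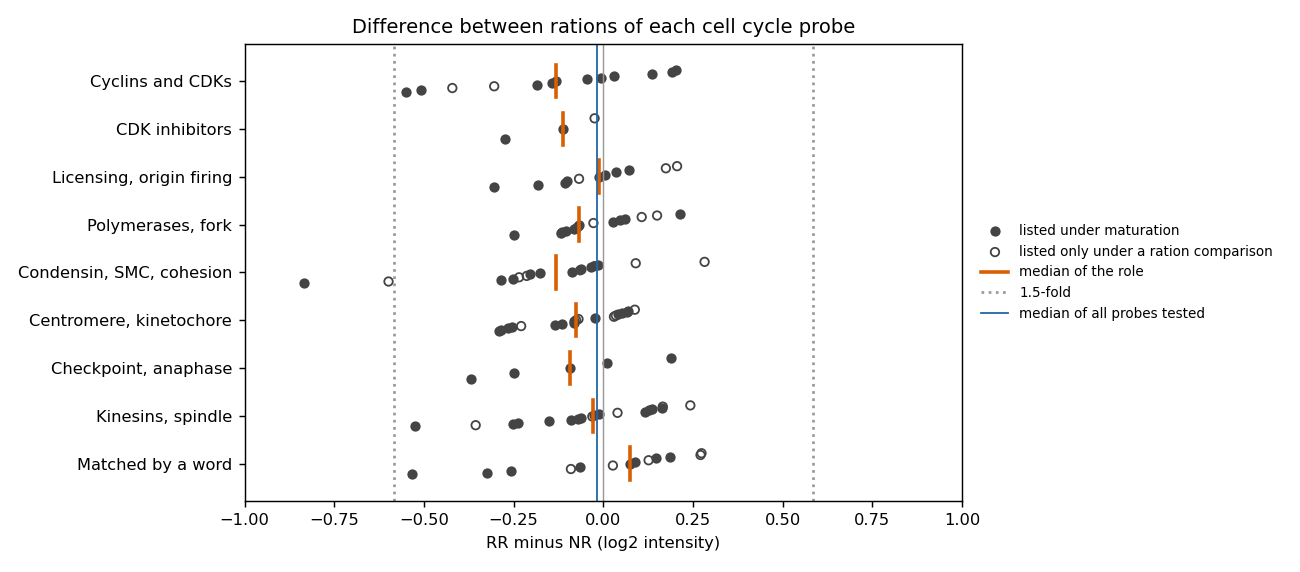
RR minus NR difference (log2 intensity) of each cell cycle probe by role; filled circles are the 80 probes listed under maturation, open circles the 33 listed only under a ration comparison, orange bars the median of a role, the blue line the median of all probes tested and dotted lines a fold of 1.5. The role medians lie between -0.13 and 0.07, and SMC2 (-0.83) and SMC1B (-0.60) are the probes past the dotted line.

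The cyclins and their kinases, 13 probes with 11 listed under maturation, had a median difference of -0.13, and 4 were higher in RR males. Cyclin-B1, which with CDK1 starts mitosis, ran from 9.56 through 11.13 to 11.88 in NR and from 8.79 through 10.15 to 13.12 in RR males (lowest, median and highest). RR 17 to RR 21 were all above the NR range, 4 RR males were below it, and 8 lay above the NR median. The range over all males was 20.1-fold and the mean difference was -0.18 ± 0.37 (SE, adjusted p = 0.83). CDK1, described as cell division control protein 2 homolog, ran from 11.88 through 13.40 to 13.75 in NR and from 10.65 through 12.40 to 14.51 in RR males. Its mean difference was -0.55 ± 0.29 (adjusted p = 0.342), and it was negative on both scan days (-0.64 and -0.49).

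Cyclin-A2, which acts from S phase into mitosis, ran from 9.88 through 10.49 to 11.13 in NR and from 8.97 through 9.87 to 12.45 in RR males. There were 11 RR males below and 5 above the whole NR range, with a mean difference of -0.14 ± 0.27 (adjusted p = 0.821). Cyclin-B2 was measured by 2 probes, with differences of -0.51 ± 0.33 (adjusted p = 0.443) and, for the probe listed only under rations, -0.42. Both had RR 17 to RR 21 on top, and cyclin-B3 differed by -0.13 ± 0.22 (adjusted p = 0.786).

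Cyclin-E1, which with CDK2 brings cells into S phase, ran from 9.02 through 9.40 to 9.85 in NR and from 9.12 through 9.39 to 10.71 in RR males. The medians were nearly equal and RR 17 to RR 21 alone lay above the NR range (mean difference 0.19 ± 0.14, adjusted p = 0.506). CDK2 differed by 0.14 ± 0.14 (adjusted p = 0.647), and CDK10 by -0.01 ± 0.16 (adjusted p = 0.986). The CDK-binding regulatory subunit 1 (Cks1) differed by -0.05 ± 0.27 (adjusted p = 0.947).

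The inhibitors of the kinases were 3 probes. Cyclin-dependent kinase 4 inhibitor D, a brake on CDK4 and CDK6, ran from 7.74 through 8.25 to 8.52 in NR and from 5.15 through 7.97 to 9.6 in RR males. It was above the NR range in RR 17 to RR 21 and below it in RR 16, RR 11, RR 4, RR 3 and RR 6, and its SD was 4.58 times as large in RR as in NR males, the largest ratio of the 113 probes. The SD in RR males leaned on RR 16 (5.15) and RR 11 (5.87), since the next lowest was RR 4 (7.06). A ratio without RR 16 and RR 11 was not computed. The mean difference of this probe was -0.27 ± 0.26 (adjusted p = 0.619). Inhibitor 3, a phosphatase that acts on the kinases, differed by -0.11 ± 0.26 (adjusted p = 0.857), with a range over all males of 15.8-fold. Inhibitor 1, listed only under rations, had a difference of -0.02.

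**Figure D4:**
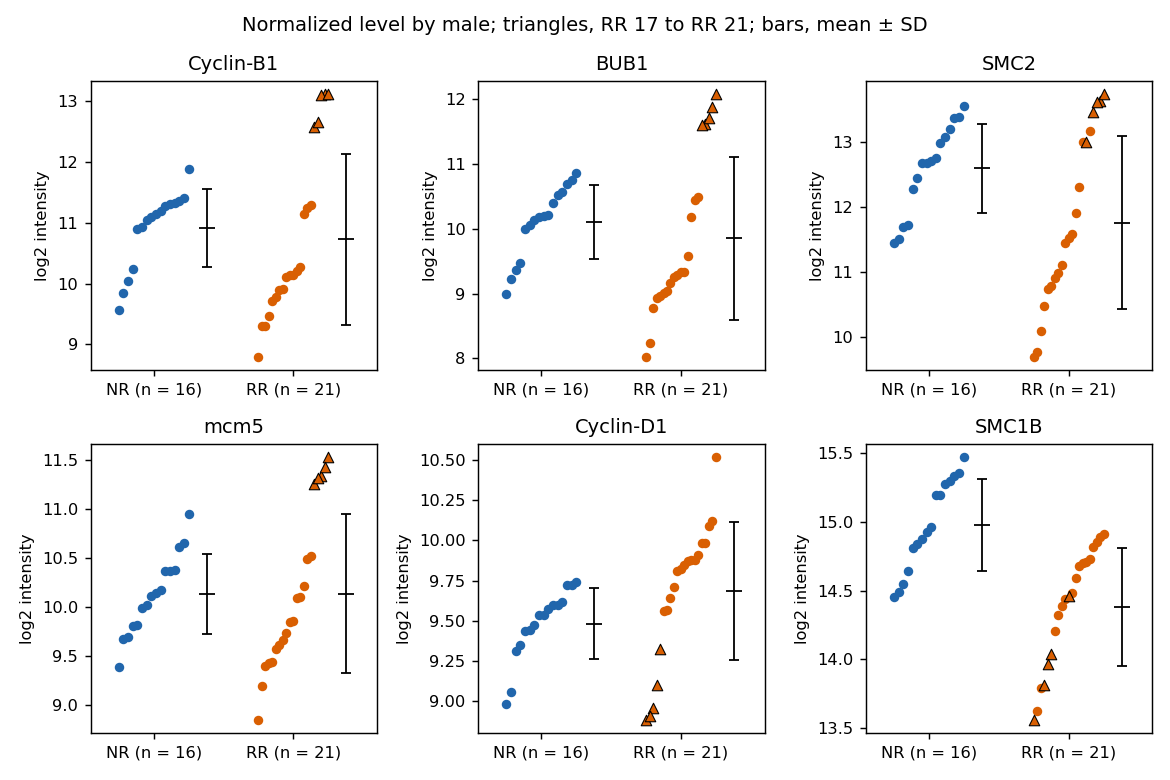
Quantile-normalized log2 intensity of 6 probes in 16 NR and 21 RR males, each panel with its own axis; triangles mark RR 17 to RR 21 and bars give mean ± SD. The triangles are at or near the top for cyclin-B1, BUB1, SMC2 and mcm5, at the foot for cyclin-D1, and in the lower part for SMC1B.

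Licensing and origin firing were covered by 11 probes (8 under maturation), with a median difference of -0.01. The helicase subunit mcm5 ran from 9.38 through 10.13 to 10.95 in NR and from 8.85 through 9.86 to 11.54 in RR males. RR 17 to RR 21 were above and 2 RR males below the NR range, and the mean difference was 0.00 ± 0.22 (adjusted p = 0.995). Cdc6, which loads the helicase, varied most of the licensing probes (16.4-fold over all males), from 8.55 through 10.07 to 10.85 in NR and from 7.68 through 9.87 to 11.72 in RR males, with a difference of -0.18 ± 0.29 (adjusted p = 0.78) that was -0.19 on day 1 and 0.17 on day 2. The largest difference in this role was that of the zygotic form mcm6-B, -0.31 ± 0.15 (adjusted p = 0.308), for which 11 RR males lay below the NR range. The 2 probes described as mcm7 differed in sign, -0.10 ± 0.17 (adjusted p = 0.794) for the maturation-listed and 0.21 for the ration-listed probe. The GINS subunits PSF1, PSF2 and PSF3, partners of the moving helicase, had differences of -0.11, 0.03 and 0.17.

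Polymerases and fork proteins were 15 probes (11 under maturation) with a median difference of -0.07. Replication protein A 14 kDa subunit, which coats single-stranded DNA, ran from 11.89 through 12.93 to 13.33 in NR and from 11.34 through 12.42 to 14.08 in RR males (mean difference -0.25 ± 0.24, adjusted p = 0.615). Above the NR range were 6 RR males and below it 7. Subunits 2 and 4 of replication factor C, the loader of the sliding clamp, differed by -0.07 ± 0.17 (adjusted p = 0.864) and 0.06 ± 0.13 (adjusted p = 0.842), and a second subunit 4 probe, listed only under rations, had a difference of 0.11. The polymerase epsilon subunits, which copy the leading strand, had differences between -0.10 and 0.03. DNA polymerase subunit delta-3, a ration-listed probe, had a difference of 0.15.

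Condensin, SMC and cohesion probes, 16 with 9 under maturation, had the lowest median of the main roles, -0.13, and 14 of the 16 were lower in RR males. SMC2, the ATPase shared by both condensin complexes, had the largest difference of all 113 probes. It ran from 11.45 through 12.69 to 13.55 in NR and from 9.69 through 11.53 to 13.73 in RR males, with 9 RR males below the NR range and 3 above it. The mean difference was -0.83 ± 0.35 (0.561-fold), which did not pass the threshold (adjusted p = 0.232), and it was -0.72 on day 1 and -1.13 on day 2. Its partner SMC4 was measured by 2 probes, with -0.28 ± 0.18 (adjusted p = 0.42) for the maturation-listed one, where 12 RR males lay below and 5 above the NR range, and -0.24 for the other.

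Of the subunits that join SMC2 and SMC4, condensin complex subunit 3 differed by -0.25 ± 0.20 (adjusted p = 0.54). Of 2 probes for subunit 1, the maturation-listed one differed by -0.04 ± 0.25 (adjusted p = 0.956), and of 2 probes for condensin-2 subunit D3 the maturation-listed one by -0.06 ± 0.20 (adjusted p = 0.897). All 4 of these subunit 1 and D3 probes had RR 17 to RR 21 as their 5 highest males. A probe annotated only as a chromosome segregation ATPase of the Smc family varied 26.9-fold over the males with a difference of -0.20 (adjusted p = 0.81), and sororin, which protects cohesion, differed by -0.01.

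SMC1B, the SMC1 form of meiotic cohesin, behaved unlike its relatives. It ran from 14.46 through 14.95 to 15.47 in NR and from 13.56 through 14.46 to 14.91 in RR males. Every RR male lay below the NR median and 10 below the whole NR range, with RR 20, RR 3, RR 7, RR 19 and RR 21 lowest, so that high and low males of the other probes stood together at its foot. The mean difference was -0.60 (0.66-fold), and -0.41 on day 1 and -0.67 on day 2. SMC1B was chosen from the study's ration comparison over all males, so this is a value with no test.

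Centromere and kinetochore probes were 19 (13 under maturation), with a median difference of -0.08 and 7 higher in RR males. Spc24, a subunit of the Ndc80 complex that binds microtubules, ran from 11.30 through 11.88 to 12.22 in NR and from 10.85 through 11.51 to 12.22 in RR males. It had the narrowest range of the role (2.59-fold), 7 RR males below the NR range, and a difference of -0.29 ± 0.12 (adjusted p = 0.221). The inner centromere protein, the scaffold of the aurora B complex, differed by the same amount with a wider spread, -0.29 ± 0.25 (adjusted p = 0.578). Centromere protein I differed by -0.27 ± 0.15 (adjusted p = 0.358). The widest range was that of a ration-listed probe for kinetochore-associated protein 1 (28.6-fold), which was well above background on 15 of 16 NR and 16 of 21 RR arrays.

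Checkpoint and anaphase probes were 5, all listed under maturation, with a median difference of -0.09. BUB1, a kinase that holds back anaphase until every kinetochore is attached, ran from 9.0 through 10.19 to 10.86 in NR and from 8.02 through 9.33 to 12.08 in RR males. There were 5 RR males above and 5 below the NR range, RR 17 to RR 21 being those above, and the difference was -0.25 ± 0.33 (adjusted p = 0.725). BUB1 beta, its relative in the checkpoint complex, had a difference of 0.19 ± 0.27 (adjusted p = 0.749), which was -0.04 on day 1. Cdc23, a subunit of the anaphase-promoting complex, differed by -0.37 ± 0.21 (adjusted p = 0.378) with 12 RR males below the NR range, and was well above background on 19 of 21 RR arrays.

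Kinesins and spindle proteins were 18 probes (13 under maturation) with a median difference of -0.03. Nucleolar and spindle-associated protein 1, which bundles spindle microtubules, ran from 6.10 through 6.88 to 7.25 in NR and from 4.03 through 6.45 to 7.70 in RR males. RR 11 and RR 16 were lowest and 8 RR males lay below the NR range (difference -0.52 ± 0.24, adjusted p = 0.273), and the difference was -0.26 with 75th percentile scaling. KIF2C, which takes microtubules apart at the centromere, differed by -0.25 ± 0.27 (adjusted p = 0.665), and by 0.02 on day 2. KIF15, a spindle motor, differed by 0.12 ± 0.16 (adjusted p = 0.738). The widest range of all probes, 37.3-fold, was that of a ration-listed probe for the abnormal spindle-like protein of the spindle poles, with a difference of 0.04. That range leaned on RR 4 (4.06), since the next lowest male was RR 3 (5.31).

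There were 7 probes that ran against the others (Pearson r below 0 with their mean over all 37 males), and RR 20 was among the 5 lowest males in each of them. Cyclin-D1, which links growth signals to entry into the cycle, ran from 8.98 through 9.54 to 9.74 in NR and from 8.88 through 9.82 to 10.52 in RR males. It was highest in RR 11, RR 4, RR 12, RR 13 and RR 3, and lowest in RR 20, RR 21 and RR 18. There were 12 RR males above the NR range and 3 below it, with a mean difference of 0.20 ± 0.12 (adjusted p = 0.386). DNA polymerase zeta catalytic subunit, which copies past damaged bases, had the highest levels in RR 12 and RR 15 and the lowest in RR 20, with a difference of 0.21 ± 0.13 (adjusted p = 0.396).

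The other opposed probes were cyclin-I, KIF9, SMC1B, flippase subunit 50A and a probe annotated as a bacterial polymerase domain (PRK12323). Cyclin-I, an atypical cyclin, ran from 11.01 through 11.33 to 11.73 in NR and from 10.10 through 11.10 to 11.67 in RR males, with RR 17 to RR 21 as its 5 lowest males. KIF9, a kinesin of motile cilia and the sperm tail in mammals, ran from 12.83 through 13.39 to 13.98 in NR and from 12.01 through 13.24 to 13.93 in RR males, with RR 20, RR 19, RR 18 and RR 21 lowest. Their differences, from ration-listed probes, were -0.30 and -0.36. Within the 16 NR males, which were among those that chose the 7 probes, the r of cyclin-I, SMC1B and 50A lay near 0 (-0.03, -0.06 and -0.08).

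Of the 13 probes that matched by a word alone, 8 were listed under maturation, and 8 of the 13 were higher in RR males (median 0.07). The ZipA-annotated probe had the lowest adjusted p of the 80. It ran from 15.40 through 16.16 to 16.68 in NR and from 14.71 through 15.59 to 16.66 in RR males, 7 of them below the NR range, with a difference of -0.53 ± 0.15 (adjusted p = 0.0492) that was -0.55 on each scan day. What salmon gene it stands for is not given by the description. The cell division inhibitor-like protein ran from 5.86 through 6.53 to 7.57 in NR and from 2.96 through 6.57 to 7.55 in RR males, with 5 RR males below the NR range (difference -0.32 ± 0.28, adjusted p = 0.577, and 0.01 with 75th percentile scaling). A probe annotated with a bacterial polymerase domain (PRK07764), listed only under rations, had a difference of 0.27. The 2 probes for cell division cycle-associated protein 7, a target of Myc, had differences of -0.06 ± 0.23 (adjusted p = 0.91) and, ration-listed, 0.13.

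RR males differed from one another more than NR males did. The SD was larger in RR than in NR males for all 113 probes, at a median ratio of 2.22, with 4 probes under 1.5 and 15 over 3. Over all 40684 probes it was larger in RR males for 91.5%, at a median ratio of 1.65, and over the 1182 other maturation-listed probes for 98.1%, at 2.04. The ratio of the cell cycle probes was 2.29 among day 1 males and 2.18 among day 2 males. The smallest ratios were those of SMC1B (1.28) and the ZipA-annotated probe (1.33). In several probes with a ratio over 3, RR 11 and RR 16 were the lowest males. Examples are Cdc23 (3.60 and 3.94) and nucleolar and spindle-associated protein 1 (4.03 and 4.64). Ratios without both of these males were not computed. The 113 and the 1182 probes were listed for differences between groups of these same males. That choice can by itself raise their ratios above that of all probes. How much of the ratios it accounts for was not tested.

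**Figure D5:**
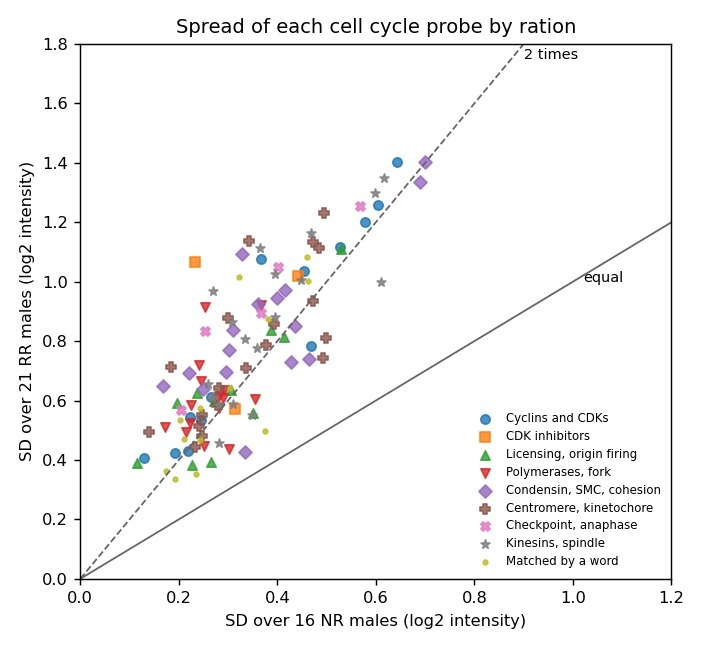
SD over 21 RR males against SD over 16 NR males of each of the 113 probes (log2 intensity), with symbols by role, a solid line where both are equal and a dashed line where the RR value is 2 times the NR value. All points lie above the solid line.

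There were 19 descriptions carried by 2 probes each, which gives a check within the array. The 2 probes of a description correlated over the NR males at a median r of 0.76. Cyclin-B2 was closest at r = 0.99, and Cdc42 (-0.01) and kinesin-1 heavy chain (0.22) had no close match. The differences between rations had the same sign in 13 of the 19, and at most 0.49 lay between the 2 probes of a description. Probes of 1 description can target different copies of a gene in the salmon genome, so such pairs are not repeats of 1 measurement.

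Other genes of the cycle whose descriptions lack the words used here were 47 probes from a list of DNA synthesis, nucleotide supply, chromatin assembly and anaphase genes, with 35 under maturation. Of these 35, none was called in RR against NR males (limma, background 0.256%), and 4 had an unadjusted p below 0.05, against 16.4% of all probes. The median difference over the 47 was -0.11 with 15 higher in RR males. Their 5 highest males were RR 17 to RR 21 in 33 of the 47. The same held for 4.47% of all probes tested and for 38.8% of all described probes. The 47 also come from the study's lists, which were made from these same males, so the count is no independent support for the pattern. Proliferating cell nuclear antigen, the sliding clamp, was measured by 2 probes with mean levels of 14.6 ± 0.33 in NR and 13.9 ± 0.85 in RR males (SD, n = 16 and 21) for the maturation-listed probe, a difference of -0.75 that was not called, and a difference of 0.02 for the other. The mismatch repair protein Msh6 had the lowest adjusted p (0.04), with a difference of -0.38.

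Markers of other cells moved with some of the same males. The mean over 6 hemoglobin probes, a marker of blood, ran from 15.2 through 16.0 to 16.3 in NR and from 13.5 through 14.9 to 16.3 in RR males, and the lowest were RR 4 and RR 11, which were also among the 4 males lowest in the cell cycle probes. RR 17 to RR 21 lay between 14.7 and 15.3. Of the 6 probes 5 were lower in RR males (median difference -1.04), and these 5 stand in the lists that compared rations. The remaining probe, for an alpha subunit, is listed under maturation and ran differently. It was highest in RR 21, RR 19, RR 18 and RR 20, with r = 0.67 to the cell cycle mean over all males. For the other 5 probes this r lay between 0.19 and 0.29. The mean over 2 probes for 3 beta-hydroxysteroid dehydrogenase, an enzyme of steroid-producing cells, ran from 9.42 through 10.6 to 11.7 in NR and from 8.58 (RR 4) through 9.89 to 11.03 (RR 18) in RR males. Over the 16 NR males the cell cycle mean correlated with the hemoglobin mean at r = 0.58 (rho = 0.58, and r = 0.71 without the 2 males farthest from the median of the cell cycle mean) and with the steroid enzyme mean at r = 0.57 (rho = 0.50, and r = 0.54 without those 2). Over the 21 RR males, which include the 5 that stood apart, r was 0.26 with hemoglobin (rho = 0.40, and r = 0.27 without 2 males) and 0.79 with the steroid enzyme (rho = 0.77, and r = 0.75 without 2 males). The 2 left out were RR 19 and RR 20, so RR 17, RR 18 and RR 21 stayed in. An r without all 5 was not computed. The 2 steroid enzyme probes stand in the study's list of maturing against immature males, as do most of the cell cycle probes. That list came from these same males, so the choice of probes can by itself make the 2 means correlate. How much of r it accounts for was not tested. All these correlations also share arrays and normalization and are given with no p. The part of blood or steroid-producing cells in the cell cycle values was not tested.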

How the data were processed

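Testis RNA of 37 males was labeled with Cy3 and read on 1 Agilent array per male. The authors deposited Feature Extraction (version 10.7.1.1) output with the intensity of every spot, its background-corrected signal and its flags. A deposited table of log2 values held the background-subtracted intensity, to within 5e-09 over the 1589471 values compared. Rations were taken from the titles, since another label field calls every ration normal.

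From the intensity files, control spots (1417 per array) were left out and 581 outlier spots set missing, and no spot was saturated. Processed signals were brought to log2 and quantile normalized. Probes well above background on at least 16 of 37 arrays were kept (40684 of 43689). The rations were compared in limma 3.58.1 (lmFit, eBayes) under R 4.3.3. Calls needed a Benjamini-Hochberg adjusted p below 0.01 over all probes tested and a fold change above 1.5, which are the study's thresholds. In simulated data for this comparison over 40684 probes, 75.5% of probes with a log2 change of 0.8 were called, 92% at 1.2 and 98% at 2. The changed probes were 200 drawn from the whole array, with noise independent between probes. Each probe had the same SD in both rations, whereas the measured SD was larger in RR males for 91.5% of all probes. Recovery with unequal SDs was not simulated. The median SD over RR males was 0.433 for all probes and 0.757 for the 80 cell cycle probes tested. These shares therefore do not apply to the 80, for which recovery was not simulated.

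Gene descriptions are those of the study's supplementary list, whose fold changes and p-values were not used. Members, lists and roles were chosen with earlier results of these data known. Named in each role were the 3 largest differences, every called probe, every probe listed for all RR against all NR males, every probe running against the others, and genes the paper names. The segregation ATPase, sororin, GINS, polymerase epsilon, kinetochore-associated protein 1 and abnormal spindle-like probes were named after their values had been seen, as were the other cell cycle genes and the probe pairs. Alternatives were other scalings, background corrections, filters, tests, scan day, slide and replicate number as blocks, and each male left out.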

Additional observations from a re-analysis of the deposited data

How the results depend on the processing

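The number of the 80 maturation-listed cell cycle probes called between rations stayed at 0 in 15 of 16 alternatives, the methods' t-test among them, and in all 37 fits that left out a male (0 to 0). Replicate numbers do not pair the males (6 of 16 same-numbered pairs deviated together at a correlation over 0.1, median 0.06). With the replicate number as a block, to which RR 17 to RR 21 do not contribute because no NR male has their numbers, 1 was called, cyclin-A2 (-0.69, adjusted p = 0.00908 from limma, 290 probes called in all), and 2 of the 35 other cell cycle probes, proliferating cell nuclear antigen and the centromeric histone H3. With array weights 1 of those 35 was called, the former.

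The median difference of the 113 probes ran from -0.40 with the replicate block to 0.03 with 75th percentile scaling, and from -0.12 (without RR 19) to -0.01 (without RR 4) when a male was left out. The SD ratio ran from 2.12 (without RR 20) to 2.54 (without NR 5). Its alternatives were chosen after seeing the data. Of 348 fits of the 27 probes followed one by one, 341 counted as unchanged. For maturation-listed probes this meant the same direction and the same outcome at the call thresholds. For ration-listed probes it meant a difference that moved by less than the probe's SD over males, whatever its sign, so their sign changes were not counted. Among the maturation-listed probes the sign turned for BUB1 beta with array weights (-0.14), on day 1 (-0.041) and with the replicate block (-0.32). It also turned on day 2 for inhibitor 3 (0.022), KIF2C (0.017) and Cdc6 (0.17), and with 75th percentile scaling for the cell division inhibitor-like protein (0.014). The causes were not tested. Signal over background limits 9 probes that some arrays did not show well above background, and p-values rest on 1 cage per ration.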
